A study of Mus musculus with 33 samples.

Results

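The striatal projection neuron transcription factors examined here are 8 genes, Isl1, Ebf1, Foxp1, Foxp2, Foxp4, Bcl11b, Ikzf1 and Zfp503, taken by name from a table of 14664 genes. All 8 were present in the table and all 8 passed the filter on low counts. RNA was sequenced from e13.5 ganglionic eminences, the ventral forebrain swellings that form the striatum. Knockout libraries came from Dlx1/2-/- embryos of the CD1 strain, and wild-type libraries from CD1 embryos of the same stage. Each genotype had 4 libraries, and per the labels 4 embryos, of which 2 were male and 2 female. The labels give neither the sex of a library nor the structure of the knockout allele. The labels name the tissue only as the eminences, with no cell sorting, so progenitors and neurons both contribute to each value.

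Striatal projection neurons are the GABAergic output cells of the striatum and arise mainly from the lateral ganglionic eminence. They form a direct pathway, marked by the dopamine receptor D1 and substance P, and an indirect pathway, marked by the receptor D2 and enkephalin. ISL1, a LIM homeodomain protein, and EBF1, a helix-loop-helix protein of the COE family, are known for their role in direct pathway neurons. ISL1 is also made in cholinergic neurons of the basal forebrain. The forkhead proteins FOXP1, FOXP2 and FOXP4 and the zinc finger protein BCL11B, also called CTIP2, are made in projection neurons of the striatum and of the cortex. IKZF1, or Ikaros, is known from the lymphoid lineage and from enkephalin-positive striatal neurons, and ZFP503, or NOLZ1, is a zinc finger protein of newborn striatal neurons. DLX1 and DLX2 are homeodomain proteins of the eminence, and proteins of this class bind DNA at sites with TAAT cores.

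RefSeq promoter windows of assembly GRCm38.p6, each 300 bases from 250 before to 50 after an annotated start, were found for 7 of the 8 genes, 11 windows in all. The window with the most TAAT or ATTA letters is shown for the 3 factors that passed the test and for Isl1, the factor whose values went the other way. Capitals mark TAAT and ATTA, which are reverse complements of each other, so both strands are covered. Zfp503 has a single window, without either.
Ebf1, chr11:44617850-44618149 (plus strand): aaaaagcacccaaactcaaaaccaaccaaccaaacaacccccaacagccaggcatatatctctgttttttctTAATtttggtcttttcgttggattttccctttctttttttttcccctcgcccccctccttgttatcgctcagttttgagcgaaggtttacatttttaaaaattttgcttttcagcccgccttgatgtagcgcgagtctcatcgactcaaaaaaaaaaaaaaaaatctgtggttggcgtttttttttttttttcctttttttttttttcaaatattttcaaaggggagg
Foxp1, chr6:99266466-99266765 (minus strand): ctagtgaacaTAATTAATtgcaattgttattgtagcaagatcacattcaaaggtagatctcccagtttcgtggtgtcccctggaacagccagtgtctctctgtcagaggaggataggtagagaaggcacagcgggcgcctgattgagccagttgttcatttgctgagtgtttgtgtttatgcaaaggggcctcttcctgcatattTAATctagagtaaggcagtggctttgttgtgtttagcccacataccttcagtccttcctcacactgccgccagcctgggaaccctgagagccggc
Zfp503, chr14:21989552-21989851 (minus strand): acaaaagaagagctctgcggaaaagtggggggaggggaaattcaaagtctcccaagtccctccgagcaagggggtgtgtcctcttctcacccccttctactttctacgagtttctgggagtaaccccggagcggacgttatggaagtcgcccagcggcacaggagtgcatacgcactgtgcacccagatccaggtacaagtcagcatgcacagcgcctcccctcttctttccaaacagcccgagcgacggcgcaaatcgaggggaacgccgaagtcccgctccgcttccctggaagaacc
Isl1, chr13:116309639-116309938 (minus strand): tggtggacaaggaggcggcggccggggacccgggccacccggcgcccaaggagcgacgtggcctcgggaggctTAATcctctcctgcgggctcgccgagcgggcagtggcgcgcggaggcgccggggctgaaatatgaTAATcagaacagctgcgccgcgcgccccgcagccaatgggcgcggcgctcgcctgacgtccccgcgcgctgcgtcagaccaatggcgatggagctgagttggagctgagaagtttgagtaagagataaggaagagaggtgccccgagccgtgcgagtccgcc
The letters TAATTA, which read the same on both strands and contain overlapping copies of TAAT and ATTA, occur in the Foxp1 window and in none of the other 10 windows. Over all 32851 RefSeq windows, a share of 5.29% holds TAATTA and 58.0% hold TAAT or ATTA, which 7 of the 11 windows hold here. The Isl1 window had 37 CpG dinucleotides and the Zfp503 window 19, against a median of 7 over all windows. The shown Foxp1 window had 5 and that of Ebf1 had 9. The other Foxp1 windows had 44 and 13, and the other Ebf1 window 17. Of the 11 windows, 9 were above that median. Whether a DLX protein binds any of these windows was not tested.

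Library totals were 14.4 M to 48.3 M counts in knockout and 20.2 M to 117 M in wild type. Levels are CPM, counts scaled to a common library size after TMM normalization. Dlx1 averaged 23.4 ± 1.97 CPM in knockout and 124 ± 4.53 CPM in wild type (SD, n = 4 each), and Dlx2 averaged 1.27 ± 0.255 CPM in knockout and 21.2 ± 5.85 CPM in wild type, with no overlap between genotypes for either gene. The eminence markers Gad1, Gad2, Six3, Sp8, Gsx2 and Nkx2-1 were above 2 CPM in every library, and Gad1, Gad2 and Sp8 fell in the knockout.

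Ebf1, Foxp1 and Zfp503 fell in the knockout, and no factor on the list passed the test on the higher side without a replicate block. With the replicate number as a block, Isl1 was called higher (edgeR adjusted p = 0.0111) and Bcl11b (adjusted p = 0.00942) and Ikzf1 (adjusted p = 0.0279) lower as well. That fit called 2.16% of all genes lower and 2.22% higher. For knockout replicates 1 and 2 the values do not back pairing by number. No overlap between genotypes was seen for Ebf1, Foxp1 and Zfp503, as held for 3.09% of tested genes on the lower side. The 3 of 8 calls compare with 0.896% of 14510 tested genes called lower and 0.586% called higher by edgeR's quasi-likelihood test at a Benjamini-Hochberg adjusted p of 0.05. The other 5 factors did not pass this test without the block. Of the 8 fitted changes 7 were below 0, as were 7407 of all 14510 genes tested. The median log2 fold change of the 8 was -0.72, against -0.0027 over all genes tested. In bulk tissue, fewer cells of a type and less RNA per cell cannot be told apart.

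**Figure D1:**
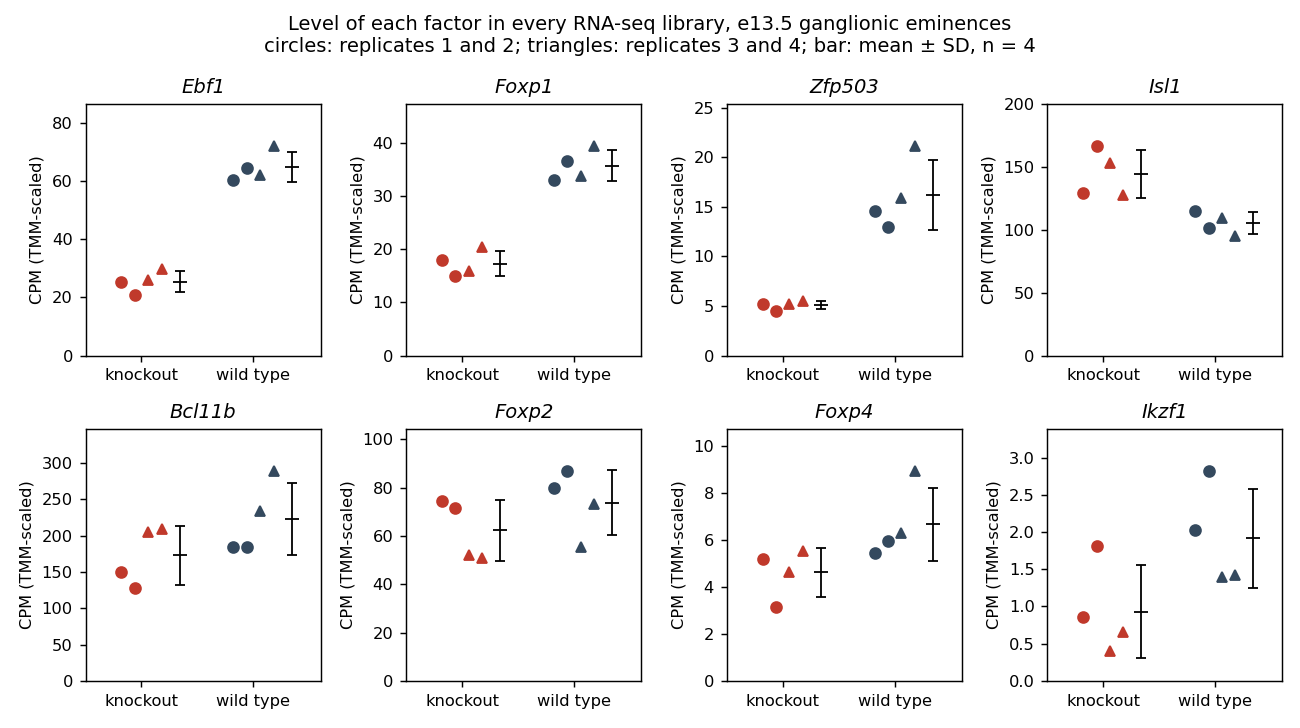
CPM of the 8 factors (vertical axes, each from 0) in the 4 knockout libraries (left, red) and the 4 wild-type libraries (right, dark), with the mean and SD as bars. Circles are replicates 1 and 2 and triangles replicates 3 and 4. The genotypes are apart for Ebf1, Foxp1, Zfp503 and Isl1 and overlap for the other 4 factors.

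Ebf1, a factor of direct pathway neurons, had 25.4, 20.8, 25.9 and 29.7 CPM in the knockout libraries, against 60.6, 64.5, 62.3 and 72.3 CPM in the wild-type libraries. The highest knockout library stayed well below the lowest wild-type library. The change was -1.35 on the log2 scale (SE 0.12, 95% interval -1.62 to -1.08, edgeR adjusted p = 0.00025), a level 39.2% of wild type. By p-value it ranked 35 of 14510 genes. It stayed called when any 1 of the 8 libraries was left out, with log2 changes from -1.44 to -1.26.

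Zfp503 showed the largest fitted change of the 8. Its levels were 5.22, 4.54, 5.15 and 5.50 CPM in knockout, against 14.6, 13.0, 15.9 and 21.2 CPM in wild type. The knockout values lay within a narrow band, with a coefficient of variation of 7.97% against 21.8% in wild type, where replicate 4 was highest. The log2 change was -1.67 (SE 0.16, 95% interval -2.02 to -1.31, edgeR adjusted p = 0.00041), a 3.18-fold lower level. Between 77 and 220 reads stood behind each knockout value, and between 263 and 1671 behind each wild-type value. The RefSeq annotation places the noncoding gene A330001L22Rik over Zfp503. The library kit keeps strand, but the labels do not say whether counting used it, so reads of the pair may be mixed.

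Foxp1, a forkhead repressor of postmitotic projection neurons, had 17.9, 15.1, 15.8 and 20.4 CPM in knockout libraries, against 33.0, 36.7, 33.9 and 39.6 CPM in wild-type libraries. As for Ebf1, the genotypes did not overlap. The change was -1.05 on the log2 scale (SE 0.12, 95% interval -1.30 to -0.79, edgeR adjusted p = 0.001), or 48.4% of the wild-type level. Several noncoding genes are annotated over Foxp1, which carries the same limit on strand. So do Ikzf1, overlapped by the noncoding gene Gm11999, and Foxp2, overlapped by the pseudogene Gm2845.

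Isl1 stood on the other side. It had 129, 167, 153 and 128 CPM in knockout, against 115, 101, 109.6 and 95.3 CPM in wild type. Every knockout library was above every wild-type library, which held for 2.89% of tested genes in this direction. The log2 change of 0.45 (SE 0.11, 95% interval 0.21 to 0.70) had an unadjusted p of 0.002 and did not pass the adjustment over all genes (edgeR adjusted p = 0.0944). With the replicate number as a block it passed (log2 0.45, edgeR adjusted p = 0.0111), as it did with DESeq2 (log2 0.45, adjusted p = 0.0101). Over its alternatives the adjusted p ran from 0.0101 to 0.252. The estimate was 0.45 in replicates 1 and 2 alone and 0.46 in replicates 3 and 4 alone. Leaving out any 1 library gave 0.38 to 0.51, with no call by edgeR.

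**Figure D2:**
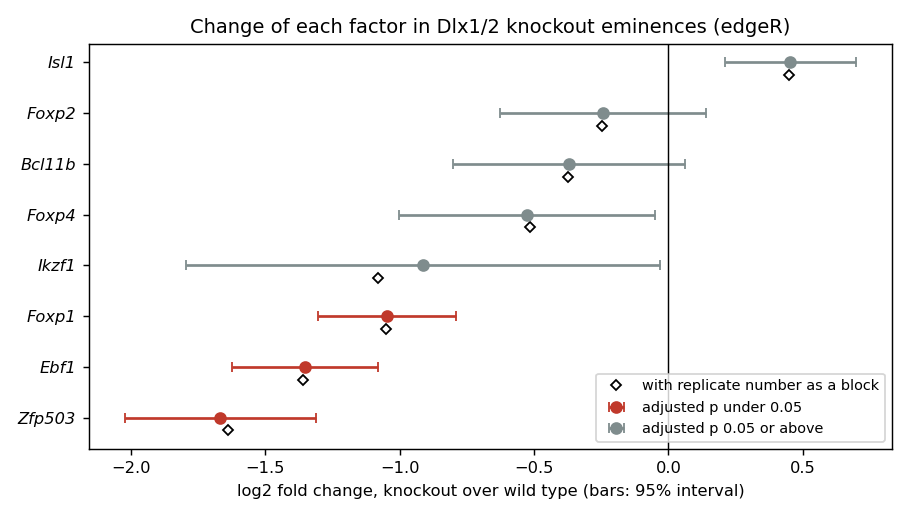
Log2 fold change of each factor, knockout over wild type, with its 95% interval from edgeR (circles and bars), and the value with the replicate number as a block (open diamonds). Red marks the 3 factors past the adjusted threshold, from -1.67 for Zfp503 to -1.05 for Foxp1, and Isl1 is the factor above 0.

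Bcl11b, which directs the differentiation of striatal projection neurons, had 150.5, 127, 204.5 and 209 CPM in knockout, against 184, 185, 234 and 289 CPM in wild type. In both genotypes replicates 1 and 2 were below replicates 3 and 4, so the genotypes overlapped although each knockout library was below the wild-type library of its own number. The log2 change was -0.37 (SE 0.19, 95% interval -0.80 to 0.06, edgeR adjusted p = 0.833). With the replicate number as a block the estimate was -0.37 (SE 0.06) and passed (adjusted p = 0.00942). Replicates 1 and 2 alone gave -0.41 (edgeR adjusted p = 0.0479) and replicates 3 and 4 alone -0.34 (edgeR adjusted p = 0.255). Without the block, the estimate was -0.22 when wild-type replicate 4 was left out and -0.25 when knockout replicate 2 was left out, neither called.

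Foxp2, a paralogue of Foxp1, had 74.6, 71.4, 52.2 and 50.8 CPM in knockout, against 79.9, 86.9, 55.3 and 73.2 CPM in wild type. Here replicates 1 and 2 were above replicates 3 and 4 in both genotypes, the reverse of Bcl11b. The log2 change was -0.24 (SE 0.17, 95% interval -0.63 to 0.14, edgeR adjusted p = 1). It did not pass with the replicate block either (adjusted p = 0.166). The estimate was -0.16 without knockout replicate 4 or without wild-type replicate 2, and -0.36 without wild-type replicate 3.

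Foxp4 was, by reads, the least abundant of the forkhead genes among the listed factors. It had 5.19, 3.14, 4.61 and 5.50 CPM in knockout, against 5.45, 5.94, 6.28 and 8.92 CPM in wild type. Knockout replicate 4 overlapped wild-type replicate 1, and the outermost values were knockout replicate 2 and wild-type replicate 4. The log2 change of -0.53 (SE 0.21, 95% interval -1.004 to -0.05) did not pass (edgeR adjusted p = 0.526), nor did it with the block (adjusted p = 0.124). It was -0.37 without knockout replicate 2 and -0.35 without wild-type replicate 4.

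Ikzf1 rested on few reads, with 36, 87, 6 and 17 in the knockout libraries and 231, 57, 33 and 34 in the wild-type libraries. As CPM these were 0.854, 1.82, 0.401 and 0.654 in knockout, against 2.02, 2.82, 1.40 and 1.42 in wild type. Knockout replicate 2 was above wild-type replicates 3 and 4, and the other 3 knockout libraries were below all wild-type libraries. The log2 change of -0.91 (SE 0.40, 95% interval -1.80 to -0.03) did not pass (edgeR adjusted p = 0.604). It was -1.49 without knockout replicate 2 (edgeR adjusted p = 0.0948), and -1.08 with the replicate block, which passed (adjusted p = 0.0279).

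With the replicate number as a block, then, 5 of the 8 factors were called lower and 1 higher, where that fit called 2.16% and 2.22% of all genes. The additions were Bcl11b and Ikzf1 below 0 and Isl1 above it. Replicate numbers 1 and 2 set apart from 3 and 4 as a 2-level term, chosen after the libraries were seen, gave 4 lower and 1 higher, without Ikzf1 (2.32% and 2.29% of all genes). DESeq2 called 3 lower and 1 higher (1.64% and 1.57% of all genes). Replicates 1 and 2 alone gave 4 lower (1.38% of genes lower, 1.22% higher), and replicates 3 and 4 alone gave the same 3 as all libraries (0.819% lower, 0.592% higher). In the authors' deposited table Ebf1 (log2 -1.35, adjusted p = 1.77e-14), Zfp503 (log2 -1.66, adjusted p = 2.42e-15) and Foxp1 (log2 -1.05, adjusted p = 7.94e-09) were below 0.05, as were 1.23% of its genes on the lower side and 1% on the higher side. The authors' deposited table gives Isl1 a log2 change of 0.45 with an adjusted p of 0.104.

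Because a call for 1 factor and none for another does not show that they differ, the ratio of each pair of factors was compared between genotypes within libraries. Of 28 pairs, 15 had log2 CPM ratios (prior count 2) that did not overlap between genotypes, each with p = 0.0286, the smallest that an exact two-sided permutation test over the 70 splits of 4 and 4 libraries can give. Adjusted over the 28 pairs this became 0.0533, so no pair passed 0.05, while 15 had an unadjusted p under it. The adjusted value depends on how many pairs share the smallest p, so no single pair could pass on its own. Each of the 15 pairs held Ebf1, Foxp1, Zfp503 or Isl1, whose own levels did not overlap between genotypes, so the pairs are not independent. The share over pairs of all genes was not computed.

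**Figure D3:**
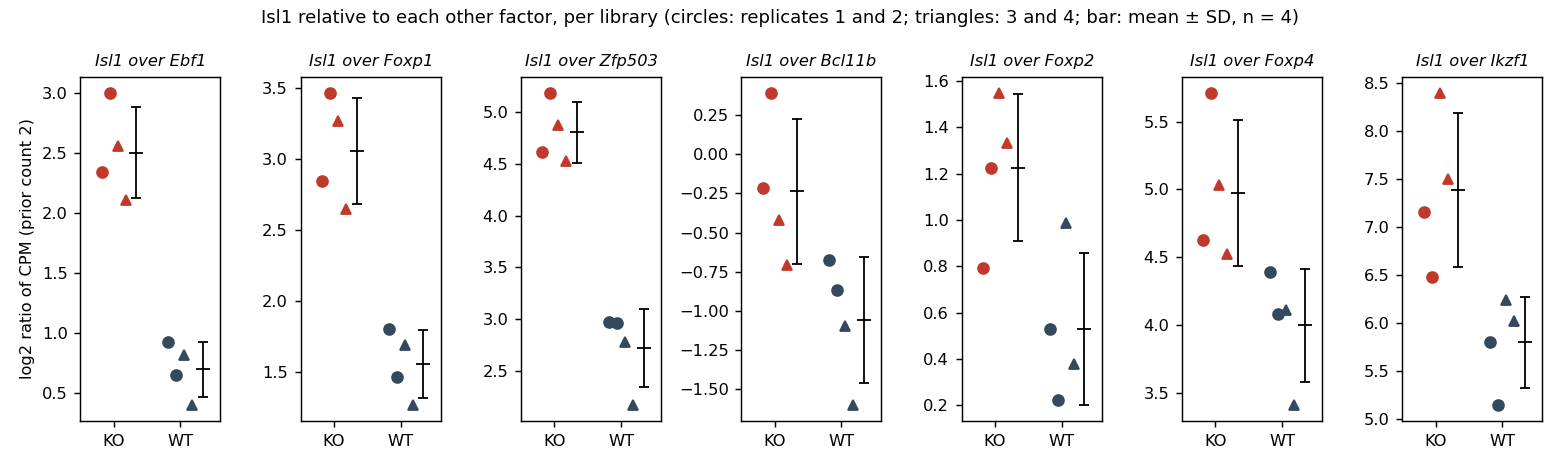
Log2 ratio of Isl1 CPM to that of each other factor in every library, knockout (left, red) and wild type (right, dark), with mean and SD as bars. Each panel has its own vertical range. The genotypes are apart for Ebf1, Foxp1, Zfp503, Foxp4 and Ikzf1 and overlap for Bcl11b and Foxp2.

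Isl1 and Ebf1, both factors of the direct pathway, had ratios that did not overlap. The log2 ratio of Isl1 to Ebf1 was 2.34, 3.004, 2.56 and 2.11 in the knockout libraries, against 0.93, 0.65, 0.81 and 0.40 in the wild-type libraries, a difference of 1.81. Isl1 to Zfp503 differed by 2.08 and Isl1 to Foxp1 by 1.50, also without overlap. Against Bcl11b the Isl1 ratio differed by 0.82 and against Foxp2 by 0.70, and in both cases the genotypes overlapped (exact permutation p = 0.0571 each, 0.0889 adjusted over the 28 pairs). That test does not pair the libraries. Between libraries of the same number, both ratios were higher in knockout in 4 of 4 comparisons. By an exact test of sign flips over the 4 numbers, 20 of the 28 pairs reached its smallest p of 0.125, which is 0.175 adjusted, so that test cannot call a pair.

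Among the forkhead factors the ratio of Foxp1 to Foxp2 differed by -0.80, with log2 ratios of -2.05, -2.24, -1.72 and -1.32 in knockout, against -1.27, -1.24, -0.71 and -0.89 in wild type. The genotypes did not overlap, though knockout replicate 4 came within 0.05 of wild-type replicate 1. The ratio of Foxp1 to Foxp4 differed by -0.52 (exact permutation p = 0.0571, adjusted 0.0889) and that of Foxp2 to Foxp4 by 0.28 (p = 0.486 by the same exact test, adjusted 0.544). Ebf1 to Foxp1 differed by -0.31, also without overlap, and Ebf1 to Zfp503 by 0.28 with overlap (exact permutation p = 0.0857, adjusted 0.12).

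Paralogues of the factors were compared beside them. Of 9 tested, 1 fell and 1 rose, with a median log2 change of 0.0041. Ebf3, a relative of Ebf1 found in cells of the cortical hem and in Cajal-Retzius cells, averaged 12.6 ± 2.05 CPM in knockout and 6.22 ± 1.43 CPM in wild type (SD, n = 4 each), a log2 change of 1.01 (SE 0.18, edgeR adjusted p = 0.0199). Bcl11a, the relative of Bcl11b, averaged 62.6 ± 7.44 CPM in knockout and 91.1 ± 8.75 CPM in wild type (log2 -0.54, SE 0.11, edgeR adjusted p = 0.0461). Ebf2 was at 6.95 CPM in knockout and 6.56 CPM in wild type, and Zfp703, the relative of Zfp503, at 1.56 CPM in knockout and 2.03 CPM in wild type, neither past the test.

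Other transcription factors of the striatal lineage gave 7 lower and 0 higher of 25 tested, with a median log2 change of -0.18. The 4 of largest change were Dlx5 (-3.35), Dlx6 (-2.67), Sp8 (-2.40) and Rxrg (-2.34), a retinoid receptor. Rarb, Vax1 and Mef2c were called lower as well. With the replicate block 10 were lower and 4 higher. Six3, a homeodomain factor of indirect pathway neurons, was at 2.58 ± 0.552 CPM in knockout and 2.94 ± 0.135 CPM in wild type (SD, n = 4 each) and did not pass the test. None of 22 genes for partner proteins of these factors was called by edgeR, with a median log2 change of 0.00036. The most abundant, the histone deacetylase gene Hdac2, was at 674 CPM in knockout and 686 CPM in wild type. Ldb1, the LIM domain partner of ISL1, was at 226 CPM in knockout and 215 CPM in wild type. Lmo3, a LIM-only protein, had a log2 change of -0.44 (edgeR adjusted p = 0.22) and was called lower with the replicate block, as Tle1, a Groucho corepressor, was called higher (0.21).

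**Figure D4:**
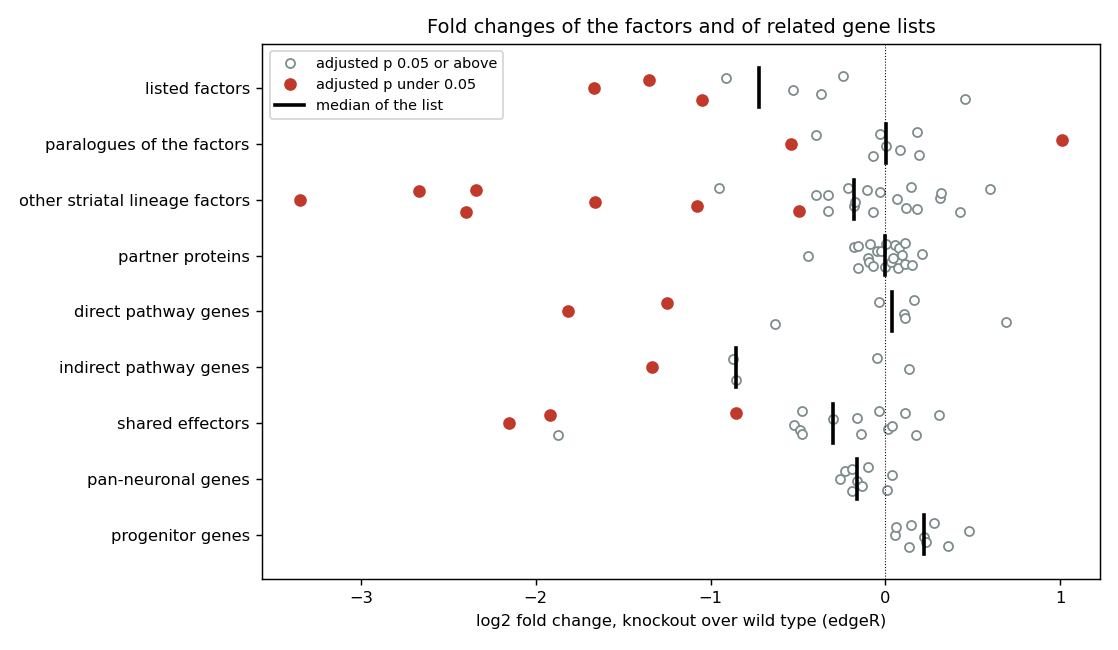
Log2 fold change, knockout over wild type, of every tested gene (circles) in the list of factors and in 8 related lists, with the median of each list as a bar. Filled red circles passed the adjusted threshold. The listed factors have a median of -0.72, and partner proteins cluster around 0.

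Genes of mature projection neurons were called lower in part. In the direct pathway list 2 of 8 tested fell and 0 rose. Tac1, which encodes substance P, averaged 15.2 ± 2.61 CPM in knockout and 53.6 ± 11.8 CPM in wild type (log2 -1.81, SE 0.18, edgeR adjusted p = 0.00051). Drd1a, the dopamine receptor D1 gene, averaged 2.30 ± 0.401 CPM in knockout and 5.41 ± 0.794 CPM in wild type (log2 -1.25, SE 0.17, edgeR adjusted p = 0.0036). The direct pathway genes had a median log2 change of 0.04. Chrm4, a muscarinic receptor of the same pathway, had 5.26 CPM in knockout and 3.22 CPM in wild type (log2 0.69, edgeR adjusted p = 0.355) and was called higher with the replicate block (log2 0.68, adjusted p = 0.0193). The block also called Asic4, an ion channel gene of the list, lower (log2 -0.63, adjusted p = 0.047), which made 3 lower and 1 higher. In the indirect pathway list 1 of 5 tested fell and 0 rose, with a median log2 change of -0.86. Drd2, the dopamine receptor D2 gene, and Gpr6 were absent from the deposited counts under those names and could not be tested. Penk, which encodes enkephalin, averaged 1.15 ± 0.0861 CPM in knockout and 2.94 ± 0.474 CPM in wild type (log2 -1.34, SE 0.17, edgeR adjusted p = 0.0031). The block added Grik3 and Adora2a to the lower side, which made 3 lower and 0 higher. Of 17 effectors shared by both pathways 3 fell and 0 rose, among them the guanylate cyclase subunits Gucy1a3 (-1.92) and Gucy1b3 (-0.85). With the block 5 of the 17 were lower and 1 higher.

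Markers of other cells that make these factors were examined beside each. For Isl1, the list of cholinergic and medial neurons had 1 of 10 tested genes lower and 0 higher. Lhx8, a LIM factor of cholinergic neurons, averaged 26.0 ± 4.40 CPM in knockout and 64.5 ± 10.1 CPM in wild type (log2 -1.31, SE 0.16, edgeR adjusted p = 0.0018). Gbx2, a homeodomain factor of those neurons, was at 5.46 ± 1.57 CPM in knockout and 2.78 ± 0.511 CPM in wild type without a call (adjusted p = 0.0748), and it passed with the replicate block. The summed level of the list was 108 to 135 CPM in knockout and 111 to 174 CPM in wild type. Chat, which encodes the enzyme that makes acetylcholine, averaged 0.464 CPM in knockout and 0.437 CPM in wild type. With the replicate block 2 of the 10 were lower and 2 higher. For Ebf1 and Ebf3, none of 11 pericyte and mesenchyme genes (summed 98.1 to 117 CPM in knockout and 94.7 to 114 CPM in wild type) and none of 6 Cajal-Retzius genes (198 to 294 CPM in knockout and 206 to 279 CPM in wild type) was called by edgeR. Reln made up most of the Cajal-Retzius sum, with a mean of 202 CPM in knockout and 202 CPM in wild type. For Ikzf1, the 12 tested genes of microglia and macrophages gave no call (45.3 to 58.8 CPM in knockout and 41.5 to 62.3 CPM in wild type). For Bcl11b and the forkhead factors, none of 10 cortical glutamatergic genes was called (559 to 731 CPM in knockout and 522 to 635 CPM in wild type). Of the 10, 9 had estimates above 0, as had 7103 of all 14510 genes tested. Erythroid (6 tested) and endothelial (8 tested) genes gave no call either. Of all genes tested in these lists, none was at 0 in all libraries of a genotype. The 5 lymphoid genes listed were not analysed here, and Pou4f1, the 1 tested gene of motor and sensory neurons, was not called.

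Pan-neuronal and progenitor genes give a measure of tissue make-up. None of 9 pan-neuronal genes was called, 7 had estimates below 0, and their sum was 4698 to 5139 CPM in knockout and 5119 to 5609 CPM in wild type. None of 9 progenitor genes was called, all 9 had estimates above 0, and their sum was 3587 to 4283 CPM in knockout and 2962 to 3584 CPM in wild type. Over all 14510 genes tested, 7407 estimates were below 0 and 7103 above. Relative to the pan-neuronal sum, the mean log2 level differed by -1.50 for Zfp503, -1.21 for Ebf1, -1.05 for Ikzf1, -0.91 for Foxp1, -0.39 for Foxp4, -0.23 for Bcl11b, -0.10 for Foxp2 and 0.59 for Isl1, knockout minus wild type, a description without a test. With the replicate block 1 pan-neuronal gene (Stmn2) was lower and 2 progenitor genes (Hes5 and Sox2) were higher. The part of cell composition in the factors' values was not tested.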

How the data were processed

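RNA-seq libraries of 4 knockout and 4 wild-type samples were analysed. The authors deposited raw read counts per gene symbol, per the file headers. Reads were aligned with STAR 2.4.2a to mm9, per the submitters' processing notes, with no counting tool or strand setting named there. The labels name both polyA RNA and a ribosome-depletion kit. The same table holds the authors' own log2 fold changes, a likelihood ratio score and p-values, per the file headers. The deposited ChIP peak lists were not used here, and no mm9 annotation was used.

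Counts were tested with edgeR 4.0.16 in R 4.3.3 (quasi-likelihood test, TMM normalization, genes kept by filterByExpr with its minimum count at 10, Benjamini-Hochberg over 14510 genes, threshold 0.05). The standard error is the log2 fold change over the root of its F statistic. DESeq2 1.42.0 was an alternative, with other scaling, no filter, each library left out, replicates 1 and 2 or 3 and 4 alone, and the replicate number as a block. The procedure was tested on simulated data. The labels give 4 embryos per genotype but do not tie a library to an embryo, so p-values measure the spread between libraries, which may be technical.

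Replicate numbers were read as pairing the libraries, because same-numbered knockout and wild-type libraries deviated together over 14510 genes (correlations 0.155, 0.293, 0.374 and 0.482). Knockout replicates 1 and 2 correlated more with the other of these numbers (0.394 and 0.603), so for them the values do not back pairing by number. The pairing was also judged from the same libraries that were tested. The labels do not say what a number marks.

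The factors and lists were chosen with earlier results of these data known. All 8 factors are named. From each other list the called genes of largest change are named, up to 4, or else the most abundant gene, and further genes (Ebf2, Zfp703, Six3, Ldb1, Lmo3, Tle1, Rarb, Vax1, Mef2c, Chrm4, Asic4, Grik3, Adora2a, Gbx2, Chat, Stmn2, Hes5, Sox2 and Pou4f1) were chosen after their values were seen. Some genes of these lists are not reported here by name.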

Additional observations from a re-analysis of the deposited data

How the results depend on the processing

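Ebf1, Foxp1 and Zfp503 kept their call and direction under all alternatives run, including those that left out 1 library, and no factor changed direction. With the replicate number as a block Isl1 (0.45), Bcl11b (-0.37) and Ikzf1 (-1.08) gained a call, which made 5 factors lower and 1 higher. DESeq2 and the 2-level term for numbers 1 and 2 against 3 and 4 (chosen after seeing the data) called Isl1 too (0.45 each, 1 higher), and the 2-level term and replicates 1 and 2 alone called Bcl11b (-0.37 and -0.41). Over all genes, 130 lower and 85 higher became 241 and 230 with DESeq2, 313 and 322 with the block, 336 and 333 with the 2-level term and 202 and 178 in replicates 1 and 2 alone. Leaving out 1 library gave 92 to 121 lower and 50 to 66 higher, the higher count being lowest without knockout replicate 1 (50) or 4 (56) or wild-type replicate 1 (50), 2 (55) or 3 (54). No pair of factors passed under any alternative to the ratio test, at prior counts of 0.5 and 5 or without 1 library. In each of these the smallest exact permutation p was 0.0286, shared by 10 to 15 pairs. A single pair at that p cannot pass the adjustment, so the lack of calls is no measure of stability. An exact test by sign flips over the 4 replicate numbers cannot go below p = 0.125. Leaving out 1 library changed the sign of at most 2 of the 28 differences. The causes were not tested. Ikzf1 had 6 to 87 reads per knockout library, the fewest of the 8 factors.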

Other observations

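The tested genes that flank each factor on its chromosome, by their order in RefSeq GRCm38, were examined after the values of the factors were seen. Of 16 flanking genes 1 was called. Gm10248, a noncoding gene beside Zfp503, averaged 0.207 CPM in knockout and 0.601 CPM in wild type (log2 -1.47, edgeR adjusted p = 0.0219), on 12, 9, 3 and 4 reads in the knockout libraries and 66, 14, 13 and 14 in the wild-type libraries. The other 15 had log2 changes from -0.26 (Mitf, beside Foxp1) to 0.21 (Zpbp, beside Ikzf1) and none passed. Beside Ebf1, Rnf145 was at 230 CPM in knockout and 215 CPM in wild type and Clint1 at 87.8 CPM in knockout and 82.0 CPM in wild type.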
